A study of Mus musculus with 8 samples.

Results

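The comparison described here set activated Treg (aTreg) cells against resting Treg (rTreg) cells of Foxp1-deficient (cKO) mice, and asked how the difference between the subsets looks without the transcription factor Foxp1. Its members were the 4 libraries of Foxp1-deficient cells among the 8 libraries of the series, 2 of aTreg and 2 of rTreg cells, chosen by genotype and subset from the sample labels. Spleens and peripheral lymph nodes of C57BL/6 mice with the genotype Foxp1fl/fl Foxp3-YFP-Cre, aged 6 to 8 weeks, were the source of both subsets. They were sorted as CD4+YFP+ cells, with CD44 low and CD62L high for rTreg and CD44 high and CD62L low for aTreg cells. The 4 WT libraries, 2 per subset, came from mice of the same strain and age with Foxp3-YFP-Cre alone, so that every group carried the Cre. In these mice the Foxp3 locus drives Cre and YFP, and deletion of Foxp1 is thereby limited to cells that express or have expressed Foxp3. The labels do not say whether animals were pooled or how many mice stand behind a library, and p-values measure the spread between these libraries.

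Treg cells are CD4+ T cells that restrain immune responses and depend on the transcription factor Foxp3. Those that recirculate through lymphoid organs in a resting state carry the receptors for entry into lymph nodes, CD62L and CCR7, and depend on factors such as Bach2, Lef1 and Tcf7 that keep T cells quiescent. After recognition of antigen they become activated (effector) Treg cells, which lose these receptors, gain receptors for inflamed and barrier tissues, divide, and make more of the molecules by which Treg cells suppress. Foxp1 is a forkhead transcription factor that keeps naive T cells quiescent and can pair with Foxp3.

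The total counts per library were between 6373170 (Foxp1-deficient rTreg, replicate 1) and 15268623 (WT aTreg, replicate 2), with 14384754 in Foxp1-deficient rTreg replicate 2 and 11588068 and 14147399 in the Foxp1-deficient aTreg libraries. Levels are given as CPM, counts scaled to a common library total after TMM normalization, and in the 4 Foxp1-deficient libraries 3 counts, the floor used here, corresponded to 0.215 to 0.477 CPM. The replicate numbers differed in sex-linked genes, with at most 3 Xist counts in each replicate 1 library and at least 15098 in each replicate 2 library, so that the replicates of a group came from different mice, and the test took the replicate number as a block. Replicate 1 of rTreg cells in both genotypes held RNA of photoreceptor genes, more in cKO rTreg replicate 1, the shallowest library, and it is described below with the genes it touches. In whole sorted populations, fewer cells of a type and less RNA per cell cannot be told apart.

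The targeted gene, Foxp1 (chromosome 6, 98925338 to 99522721, GRCm38), had 341 and 337 CPM in Foxp1-deficient rTreg cells and 126 and 101 CPM in Foxp1-deficient aTreg cells, replicates 1 and 2 in this order as in every pair of values below. In WT cells it had 353 and 383 CPM in rTreg and 234 and 230 CPM in aTreg cells. The Foxp1-deficient libraries were thus below WT in aTreg cells and close to WT in rTreg cells. Counts over the whole gene include exons outside the deleted part, so they do not check the genotype labels of the rTreg libraries. Between the Foxp1-deficient subsets Foxp1 fell by 1.58 on the log2 scale (standard error 0.097, adjusted p = 1.97e-05), where adjusted p-values here and below are from edgeR (quasi-likelihood) after Benjamini-Hochberg adjustment, against -0.67 in WT.

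The sort was visible in the RNA. Cd44, a hyaluronan receptor, had 29.6 and 30.3 CPM in rTreg and 174 and 197 CPM in aTreg cells. It was a gate of the sort and is no finding. Foxp3, whose reporter was also a gate, had 428 and 480 CPM in rTreg and 496 and 586 CPM in aTreg cells (log2 fold change 0.25, standard error 0.084, adjusted p = 0.0457), under the fold threshold. Il2ra, the high-affinity IL-2 receptor chain, fell by 0.59 on the log2 scale (standard error 0.062, adjusted p = 0.000251), and its rTreg levels of 619 and 531 CPM lay above the 418 and 350 CPM of aTreg cells. Cd4 had a log2 fold change of -0.07 (adjusted p = 0.285).

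Without Foxp1, activated Treg cells still differed from resting Treg cells across a wide range of genes. Receptors for inflamed tissues, suppressive molecules and the transcription factors of effector Treg cells were higher by large folds, many of them from levels near 0, and genes of mitosis rose by less. The genes that fell were fewer and fell by less, among them transcription factors and homing receptors of the resting state. With an adjusted p under 0.05 and at least 2-fold as the threshold, 1643 of 14540 genes tested were higher (11.3%) and 639 lower (4.39%) in aTreg cells. The adjusted p alone was passed by 5828 genes (40.1%). The shares of 11.3% and 4.39% are the background for the counts of every list below.

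The higher genes had a median log2 fold change of 2.32, or 2.01 with the genes at or under the floor in rTreg cells set at their lower bound, and the lower genes one of -1.69 (-1.66 with bounds). Each replicate pair showed the direction of the call for 1643 higher and 624 lower genes, and reached 2-fold on its own for 1337 and 403. Changes of at least 16-fold were fitted for 372 higher and 46 lower genes. A group of 358 higher genes had at most 3 counts in each rTreg library, and 71 lower genes had at most 3 in each aTreg library. Such genes passed the filter on low counts only through other libraries, so their direction was largely set by the filter. Leaving out cKO rTreg replicate 1 gave 1480 higher and 437 lower genes, and 1372 and 394 of these were among the genes called with it.

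**Figure D1:**
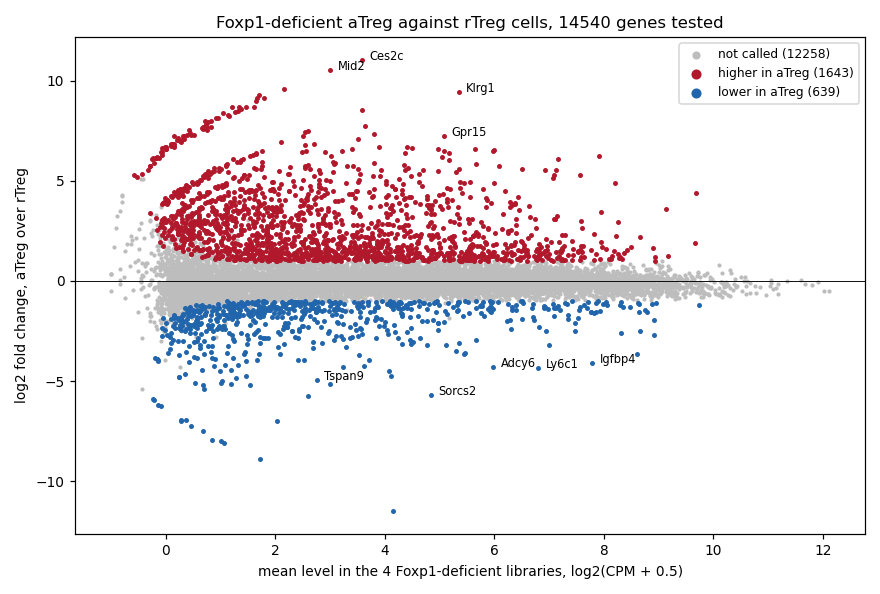
Each point is a gene tested, with its mean level in the 4 Foxp1-deficient libraries on the x axis (log2 of CPM + 0.5) and its log2 fold change, aTreg over rTreg, on the y axis. The 1643 genes called higher (red) reach larger changes than the 639 called lower (blue), and the arcs at the upper left are genes with no or few counts in rTreg cells, whose fitted change depends on the prior count.

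The largest increases were in genes that were close to silent in resting cells. Klrg1, an inhibitory receptor of differentiated T cells (chromosome 6, 122270596 to 122282882), had 0 and 0.144 CPM in rTreg cells and 92.6 and 68.1 CPM in aTreg cells. The groups were far apart, and with 0 and 2 counts in the rTreg libraries the level was at least 232-fold higher in aTreg cells. Here and below such a bound sets the mean of both aTreg libraries against the mean level of 3 counts per rTreg library. A single replicate can lie under it. By the same bound Slc7a10, an amino acid transporter, was at least 77.5-fold higher, Ryk, a Wnt receptor, at least 68.9-fold, Ces2c, a carboxylesterase, at least 65.9-fold, Bicd1, a dynein adaptor, at least 62.4-fold, Mid2, a ubiquitin ligase, at least 43.3-fold and Pvrig, an inhibitory receptor, at least 34.4-fold. Ces2c lies among near-identical carboxylesterase genes, and reads shared with these may have been split or dropped in counting. Gpr15, which guides T cells to the colon, had 0.318 and 0.505 CPM in rTreg and 67 and 65.1 CPM in aTreg cells (log2 fold change 7.23, standard error 0.305, adjusted p = 4.44e-06). Igsf9b, an adhesion molecule, rose by 6.67 on the log2 scale from 0.159 and 0.505 CPM, and Arnt2, a partner of the aryl hydrocarbon receptor family, by 6.67 from 0 and 0.433 CPM.

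The largest decreases started from higher levels. Sorcs2, a sorting receptor of the Vps10 family, had 61.1 and 49.1 CPM in rTreg and 1.17 and 1 CPM in aTreg cells (log2 fold change -5.68, standard error 0.474, adjusted p = 7.8e-05). Igfbp4, which binds insulin-like growth factors, had 451 and 381 CPM in rTreg and 32.7 and 16.5 CPM in aTreg cells. Its log2 fold change was -4.07, and the pairs did not overlap. Adcy6, an adenylyl cyclase, fell by 4.27 from 134 and 102 CPM, and Ly6c1, a surface protein of resting and memory T cells, by 4.33 from 198 and 225 CPM on the log2 scale. Ly6c1 has a near-identical neighbour, Ly6c2, so its level is uncertain. Tspan9, Cnn3, Dapk1, Acvrl1 and Drc1 fell by between 3.70 and 4.93 on the log2 scale. Ntn4, a netrin, had 20.4 and 13.4 CPM in rTreg and 0.753 and 1.29 CPM in aTreg cells, but its call (adjusted p = 0.0227) was lost in 5 alternatives, with an adjusted p = 0.246 without cKO aTreg replicate 1 and 0.106 without cKO rTreg replicate 2.

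**Figure D2:**
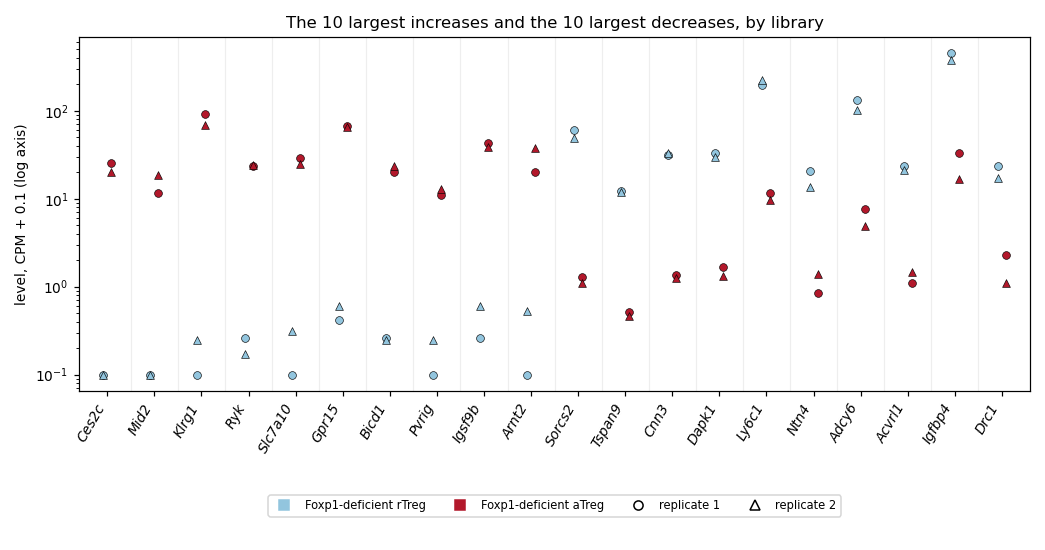
Levels of the 10 genes with the largest increase and the 10 with the largest decrease in each of the 4 Foxp1-deficient libraries, as CPM + 0.1 on a log axis, with circles for replicate 1 and triangles for replicate 2. For every gene both aTreg libraries (red) lie on the same side of both rTreg libraries (blue), and the increases start at or near 0. The genes were chosen with at least 2-fold in both replicate pairs, so this separation was largely set by the choice.

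Genes at the floor in one subset were ranked by their bound. High bounds among the decreases, from the mean of both rTreg libraries, were those of Prph2 (30.7-fold) and Rbp3 (23.9-fold), both genes of photoreceptor cells. Only rTreg replicate 1 held counts of Prph2 (90 and 0) and Rbp3 (70 and 0), so no bound holds for replicate 2. Tmem108 (at least 20.1-fold) and Ptger3, a prostaglandin E2 receptor (at least 18.6-fold), also had high bounds. Rbp3, which carries retinoids between cells of the retina, had 11.1 CPM in cKO rTreg replicate 1 and 0 in the other 3 Foxp1-deficient libraries. On a list of photoreceptor genes written after these values were seen, 13 of 14 members tested were called lower. Their summed level was 199 CPM in cKO rTreg replicate 1, 25.8 in cKO rTreg replicate 2 and 23.6 and 25.3 in the aTreg libraries. In WT the sum was 96.4 CPM in rTreg replicate 1, 23.8 in rTreg replicate 2 and 17.9 and 19.4 in aTreg cells. Without cKO rTreg replicate 1 the adjusted p was 1 for Rbp3 and 0.92 for Prph2. Other members were higher in both rTreg libraries, such as Cnga1, a channel subunit, with 7 and 6.2 CPM against 0.921 and 1.58 CPM. Tmem108 (5.25 and 4.11 CPM against 0 and 0.215) and Ptger3 (3.5 and 5.19 CPM against 0.251 and 0.0718) were higher in both rTreg libraries.

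Transcription factors of the resting state were the list with the lowest median. Of its 16 members 5 were called lower and 0 higher, 7 passed the adjusted p without the fold, and 4 did not pass, with a median log2 fold change of -0.52 against -0.02 over all genes tested. Satb1, which organizes chromatin in T cells, had 725 and 643 CPM in rTreg and 123 and 117 CPM in aTreg cells (log2 fold change -2.52, standard error 0.295, adjusted p = 0.000413). Bach2, which represses effector genes in T cells, had 207 and 212 CPM in rTreg and 40.8 and 32.6 CPM in aTreg cells (-2.51, standard error 0.14, adjusted p = 1.26e-05). For both genes the rTreg libraries lay far above the aTreg libraries, and replicates were close.

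Lef1, a partner of β-catenin, fell from 335 and 311 CPM to 114 and 110 CPM, and Myb from 60.9 and 49.2 CPM to 26.7 and 20.8 CPM. Klf2, which drives expression of the egress receptor S1pr1, had 667 and 430 CPM in rTreg and 214 and 277 CPM in aTreg cells (-1.13, standard error 0.209, adjusted p = 0.00381), and its change fell under 2-fold without cKO rTreg replicate 1 (-0.77) or cKO aTreg replicate 1 (-0.81). Among the members under 2-fold, Ikzf1 (-0.79), Tcf7 (-0.67), Zeb1 (-0.56), Klf3 (-0.48), Foxo1 (-0.47) and Bcl11b (-0.30) had negative log2 fold changes that passed the adjusted p and Tox a positive one (0.96). Foxo3 (-0.18), Id3 (0.16), Elf4 (0.15) and Ets1 (-0.13) did not pass it.

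The list of receptors for lymph node entry and egress moved in both directions. It also held the cytokine receptors Il7r and Il6ra and the receptor Treml2, and its called chemokine receptors were Ccr7, lower, and Cxcr4, higher. Of 11 members 3 were lower and 2 higher, with a median log2 fold change of -0.06. Ccr7, which guides T cells into lymph nodes, had 298 and 212 CPM in rTreg and 79.4 and 59 CPM in aTreg cells (-1.87, standard error 0.104, adjusted p = 1.22e-05). Treml2 fell by 2.48 and Il6ra, the IL-6 receptor chain, by 1.20 on the log2 scale. Cxcr4, a chemokine receptor of bone marrow homing, had 103 and 36.9 CPM in rTreg and 200 and 154 CPM in aTreg cells, and Il7r, the receptor of the survival cytokine IL-7, had 157 and 189 CPM in rTreg and 378 and 490 CPM in aTreg cells. All aTreg values of both genes lay above the rTreg values, and neither passed the threshold without the replicate block. S1pr1, the main egress receptor, had a log2 fold change of -0.89 (adjusted p = 0.00133), Itgal one of 0.79, Gpr183 one of 0.54 and Itga4 one of -0.33, all under 2-fold, and S1pr4 (0.25) and Itgb7 (-0.06) did not pass the adjusted p.

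Transcription factors of effector Treg cells rose together, with 19 of 22 members called higher and 1, Myb, lower. Their median log2 fold change was 2.47, or 2.24 with the member at the floor set at its bound. Maf, which drives Il10 in T cells, had 18.3 and 20.2 CPM in rTreg and 552 and 589 CPM in aTreg cells (4.88, standard error 0.136, adjusted p = 1.74e-06). Tbx21, which encodes T-bet of type 1 responses, had 0.636 and 1.3 CPM in rTreg and 21.8 and 30.1 CPM in aTreg cells. Ahr, a sensor of aromatic ligands, had 9.07 and 4.98 CPM in rTreg and 107 and 111 CPM in aTreg cells (4.06, standard error 0.184, adjusted p = 5.05e-06). The groups of these 3 genes did not overlap. Pparg, of adipose tissue Treg cells, stayed low and was at least 3.60-fold higher, with 1.42 and 1.08 CPM in aTreg cells, a call lost without cKO rTreg replicate 1 (adjusted p = 0.0601) or cKO aTreg replicate 2 (0.057).

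Prdm1, which encodes Blimp-1 (3.09), Id2 (2.17), Batf (1.86), Gata3 (1.48) and Irf4 (1.09) were also higher, with the log2 fold change in parentheses, and Irf4 fell under 2-fold without cKO rTreg replicate 2 (0.86). Ikzf4 (0.73) and Ikzf3 (-0.39) passed the adjusted p without the fold. Compared per length, on the scale of the deposited FPKM (fragments scaled by gene length and library depth), the factors with the highest mean level in Foxp1-deficient aTreg cells were Ikzf2 (111 and 110 FPKM), Batf (107 and 108 FPKM), Gata3 (78.2 and 64.1 FPKM) and Id2 (68.1 and 73.9 FPKM). Ikzf2 and Batf were close to each other, the values of Gata3, Id2 and Maf (69 and 70.4 FPKM) overlapped, and Tbx21 (9.02 and 11.9 FPKM) was well below all of them.

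**Figure D3:**
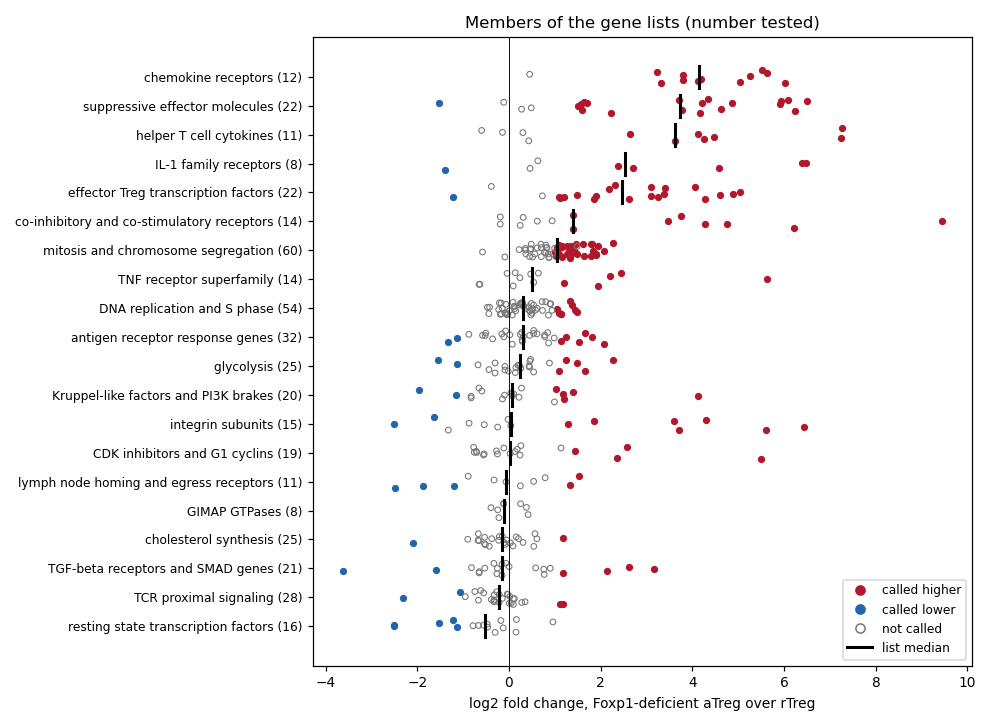
Each point is a gene of a list, placed by its log2 fold change in Foxp1-deficient aTreg over rTreg cells, filled where called, with a bar at the list's median and the number tested in parentheses. Chemokine receptors and suppressive molecules have medians of 4.16 and 3.74. The mitosis genes spread from -0.58 to 2.26 around a median of 1.06, and resting state transcription factors have the lowest median at -0.52.

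Because Foxp1 is a forkhead factor, promoters were searched for the forkhead core TGTTTAC on either strand. They were those of the transcription factors on both lists and of the genes whose subset difference differed between genotypes (below). In the RefSeq promoters of GRCm38.p6, 250 bases before to 50 after a start, the motif stood in 3.65% of all 32851 promoters, in 3.03% of 1551 promoters of genes called higher, in 2.61% of 498 of genes called lower and in 2.48% of 10317 of genes not called. Of 42 promoters found for 26 of the transcription factor genes, those of Prdm1, Myb and Tcf7 held it. Of 47 promoters found for 37 of the genes whose subset difference differed between genotypes, 1 promoter of Il1rl1 did. The promoters of Prdm1 and Myb are shown as those of a factor that rose and of one that fell. Il1rl1, which encodes the IL-33 receptor ST2, is shown as the gene whose subset difference was larger without Foxp1 by the most. All 3 sequences follow below. They are given 5′ to 3′ on the gene's strand, with the motif, TGTTTAC or its reverse complement, in capitals. A match is a description of these letters and no measured site.
Prdm1, chr10:44458699-44458998, minus strand: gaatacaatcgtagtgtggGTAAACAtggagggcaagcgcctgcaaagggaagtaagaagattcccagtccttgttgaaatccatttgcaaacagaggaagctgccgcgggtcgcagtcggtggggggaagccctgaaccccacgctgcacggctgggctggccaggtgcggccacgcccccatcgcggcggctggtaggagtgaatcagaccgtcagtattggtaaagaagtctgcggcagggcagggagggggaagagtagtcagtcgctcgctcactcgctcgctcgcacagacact
Myb, chr10:21160935-21161234, minus strand: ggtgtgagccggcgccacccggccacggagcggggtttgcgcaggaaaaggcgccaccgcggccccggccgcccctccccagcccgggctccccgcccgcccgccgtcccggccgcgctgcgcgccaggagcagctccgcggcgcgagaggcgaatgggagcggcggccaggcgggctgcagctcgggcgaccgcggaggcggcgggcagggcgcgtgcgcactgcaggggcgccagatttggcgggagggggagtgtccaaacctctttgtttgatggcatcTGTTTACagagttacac
Il1rl1, chr1:40439379-40439678, plus strand: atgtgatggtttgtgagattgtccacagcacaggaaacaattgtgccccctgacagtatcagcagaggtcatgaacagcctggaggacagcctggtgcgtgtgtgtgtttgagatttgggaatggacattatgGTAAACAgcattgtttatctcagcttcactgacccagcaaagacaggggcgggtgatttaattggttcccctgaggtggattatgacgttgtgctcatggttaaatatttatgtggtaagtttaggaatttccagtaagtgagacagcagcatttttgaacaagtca

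Suppressive effector molecules rose by more than the transcription factors. Of 24 members 22 were tested, 18 were called higher and 1 lower, with a median log2 fold change of 3.74. The limit given above for genes at the floor in rTreg cells holds for Il10. Tigit, an inhibitory receptor, had 1.91 and 5.19 CPM in rTreg and 271 and 295 CPM in aTreg cells (6.09, standard error 0.385, adjusted p = 2.3e-05). Itgae, the CD103 chain that binds E-cadherin, had 4.77 and 7.57 CPM in rTreg and 365 and 588 CPM in aTreg cells (6.24, standard error 0.118, adjusted p = 2.66e-07). Fgl2, a secreted inhibitor of T cells, had 0.318 and 0.938 CPM against 52.1 and 80 CPM, and Gzmb, the protease granzyme B, 0.159 and 0.289 CPM against 16.5 and 14.4 CPM. In each of the 4 genes every aTreg value lay far above every rTreg value.

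Il10, the suppressive cytokine, had 2 counts in each rTreg library and 24.5 and 7.18 CPM in aTreg cells. By the mean of both aTreg libraries this was at least 45.7-fold more, but the aTreg replicates differed by more than 3-fold. Ctla4, which removes co-stimulatory ligands from antigen-presenting cells, rose by 1.51 on the log2 scale from a level that was already high in rTreg cells (89.2 and 39.9 FPKM, against 252 and 122 FPKM in aTreg cells). Its call was lost without the replicate block (adjusted p = 0.0948). Furin (0.49) and Tgfb1 (0.27), the protease and the cytokine TGF-β1, passed the adjusted p without the fold, and Lrrc32, which displays TGF-β on Treg cells, did not pass it (-0.11, adjusted p = 0.41). Prf1, the pore-forming protein perforin, was called lower (-1.52) and Gzma, granzyme A, higher (1.63), and each lost its call in 9 alternatives. For Prf1 these included leaving out cKO rTreg replicate 1, either cKO aTreg library or either WT rTreg library (adjusted p up to 0.29), and for Gzma either cKO rTreg library, cKO aTreg replicate 1 or either WT rTreg library (adjusted p up to 0.326).

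Of 16 chemokine receptors 12 were tested and 11 called higher, with 0 lower, where 11.3% of all genes tested were higher. Members near 0 in rTreg cells, such as Ccr3 and Xcr1, passed the filter on low counts only through other libraries. The direction of such members was largely set by the filter. The median log2 fold change of the 12 was 4.16, or 3.83 with 3 members at their bound. Cxcr3, of type 1 inflammation, had 4.14 and 5.84 CPM in rTreg and 198 and 279 CPM in aTreg cells (5.53, standard error 0.188, adjusted p = 2.27e-06). Ccr2, of inflamed tissue, had 0.477 and 1.51 CPM in rTreg and 55.2 and 84.6 CPM in aTreg cells (6.02, standard error 0.313, adjusted p = 9.67e-06). Ccr3 and Xcr1 were at the floor in rTreg cells and were at least 14.4-fold and 6.29-fold higher. The exception among those tested was Ccr9, the small intestine receptor, with a log2 fold change of 0.45 (adjusted p = 0.119). Per length, Cxcr3 had the highest level in aTreg cells (118 and 159 FPKM), followed by Ccr8 (83.7 and 40.1 FPKM) and Ccr4 (46.4 and 49.7 FPKM), of which the last pair overlapped. The untested members were Ccr1, Cx3cr1, Cxcr1 and Cxcr2, none above 0.481 FPKM in any of the 4 libraries.

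Co-inhibitory and co-stimulatory receptors were higher for 8 of 14 members, with a median log2 fold change of 1.39. Besides Klrg1, Pdcd1, which encodes PD-1, rose from 10.2 and 15.8 CPM to 172 and 196 CPM and Icos, a co-stimulatory receptor of effector T cells, from 35 and 46.7 CPM to 416 and 492 CPM, without overlap. Lilrb4a rose by 4.75 on the log2 scale, and Havcr2, which encodes TIM-3, and Cd80 were at least 13.6-fold and 14.2-fold higher against the floor. Cd86 (0.94), Cd200 (0.62) and Cd28 (0.31) were under 2-fold, and Cd274 (0.24), Btla (-0.19) and Vsir (-0.19) did not pass the adjusted p. In the TNF receptor superfamily 5 of 14 members tested were higher and 0 lower (all genes: 11.3% and 4.39%), with a median of 0.51. Tnfrsf8, the CD30 receptor, had 0.477 and 0.866 CPM in rTreg and 52.1 and 30.1 CPM in aTreg cells (5.62, standard error 0.303, adjusted p = 1.12e-05). Tnfrsf1b, a TNF receptor that sustains Treg cells, rose from 159 and 132 CPM to 653 and 675 CPM, Tnfrsf9 by 1.94, Tnfrsf4 by 1.21 and Cd40 by 2.43 on the log2 scale. The call of Cd40 was lost with DESeq2 (adjusted p = 0.0768) and without either cKO rTreg library or cKO aTreg replicate 1 (adjusted p up to 0.0859). Tnfrsf18, which encodes GITR, had a log2 fold change of 0.64 and Fas one of -0.65, both under 2-fold, and Cd27 (0.09) and Tnfrsf25 (-0.04) did not pass the adjusted p.

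Receptors of the IL-1 family were higher for 5 of 8 members tested and lower for 1. Il1rl1, whose promoter is shown above, had 1.43 and 1.51 CPM in rTreg and 87.6 and 160 CPM in aTreg cells (6.48, standard error 0.188, adjusted p = 1.79e-06). Il1r2, the decoy receptor of IL-1, had 0.477 and 0.938 CPM against 74.2 and 67.2 CPM, and both chains of the IL-18 receptor rose, Il18rap by 4.58 and Il18r1 by 2.37 on the log2 scale. In these genes the subsets did not overlap. Il1r1 stayed low at 2.85 and 2.01 CPM in aTreg cells (2.72, a call lost without cKO rTreg replicate 2), Il1rap (0.63) and Sigirr (0.46) were under 2-fold, and Il1rl2, the IL-36 receptor, was lower (-1.39), a call that was lost without cKO rTreg replicate 1, cKO rTreg replicate 2 or cKO aTreg replicate 2.

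Cytokines of helper T cells differed widely in level. In aTreg cells Ltb, a lymphotoxin chain, had 460 and 502 FPKM, and Ifng, the type 1 cytokine, 10.7 and 5.51 FPKM. Of 22 listed cytokine genes 11 passed the filter on low counts, which a gene near 0 in rTreg cells passes only through the subset where it is higher. Of these 7 were higher and 0 lower. Ifng had 0 and 1 counts in rTreg libraries and 13.5 and 7.25 CPM in aTreg cells, at least 29.9-fold more. Il4 (at least 5.67-fold) and the chemokine Ccl1 (at least 5.34-fold) were also at the floor in rTreg cells. So was Il21, with 1 and 4.95 CPM in aTreg cells. Its ratio of 8.59 to the floor is from the mean of both aTreg libraries and is no bound for replicate 1. The call of Il21 was lost without either cKO rTreg library or cKO aTreg replicate 2. Ccl5 rose by 4.47 on the log2 scale from 0.159 and 1.37 CPM. Tnfsf11, which encodes RANKL, had 17.8 and 14.4 CPM in rTreg and 113 and 88.4 CPM in aTreg cells.

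Genes induced by the antigen receptor did not move as a group. Of 32 members tested 6 were higher and 2 lower (all genes: 11.3% and 4.39%), with a median log2 fold change of 0.30. Nfatc1, a calcium-driven transcription factor, had 174 and 180 CPM in rTreg and 490 and 530 CPM in aTreg cells (1.53, standard error 0.094, adjusted p = 1.98e-05), and Egr2, which limits T cell responses, 18 and 24.4 CPM against 70.5 and 81.3 CPM. The other higher members were Nr4a2 (2.07), Fosb (1.66), Dusp4 (1.24) and Egr3 (1.13), and Myc (-1.13, and -0.91 without cKO aTreg replicate 2) and Fosl1 (-1.32, a call lost without either cKO rTreg library or cKO aTreg replicate 1) were lower. Several of these genes also differed between replicates. Fosb had 111 CPM in cKO rTreg replicate 1 and 31.9 in replicate 2, and 360 against 97.8 CPM in the aTreg libraries, so that the values of the subsets overlapped and the change was visible only within replicate pairs. Over 12 immediate-early genes, listed after these values were seen, the summed level was 5092 and 2233 CPM in rTreg and 5762 and 2877 CPM in aTreg cells, and the part of this replicate difference in the results was not tested. Without the block 3 members were higher and 1 lower, and 1 was lower when any of the 4 Foxp1-deficient libraries was left out.

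Of 28 genes of signaling close to the T cell receptor 2 were higher, Sla (1.18) and Ptpn22 (1.11), both of which restrain the receptor's signal, and 2 lower. Over all genes tested 11.3% were higher and 4.39% lower, and neither count is read as a result about the list. Txk, a Tec family kinase, had 192 and 184 CPM in rTreg and 42.4 and 32.9 CPM in aTreg cells (-2.32, standard error 0.172, adjusted p = 4.64e-05), and Grap2, an adaptor, had a log2 fold change of -1.06 (-0.97 without cKO rTreg replicate 1). A further 12 members passed the adjusted p with a decrease of less than 2-fold, among them the receptor chain Cd247 (-0.67) and Prkcq (-0.62).

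Many genes of mitosis were higher in aTreg cells, and few of those of DNA replication. Of 60 mitosis genes 33 were called higher and 0 lower, with a median log2 fold change of 1.06, and 58 had a fold change above 0. Mki67, which encodes Ki-67, had 43.3 and 65.3 CPM in rTreg and 172 and 244 CPM in aTreg cells (1.95, standard error 0.0936, adjusted p = 6.54e-06). Ccnb1, cyclin B1, had 2.23 and 1.8 CPM in rTreg and 8.12 and 10.5 CPM in aTreg cells, and Racgap1, of cytokinesis, 13.7 and 15 CPM against 51.7 and 67.2 CPM. The subsets were apart in all 3 genes. The number of mitosis genes called was 19 without the replicate block and 21 without cKO rTreg replicate 2. Of 54 genes of DNA replication and S phase 8 were higher, a share close to the 11.3% of all genes, 0 were lower and 30 did not pass the adjusted p, with a median of 0.31. Rrm2 (1.49), Clspn (1.45), Gins1 (1.38) and Tyms (1.34) led them, while Pcna (0.07, adjusted p = 0.452), Mcm2 (-0.06, adjusted p = 0.591) and E2f1 (-0.03, adjusted p = 0.958) did not pass the test. The number called was 4 without cKO rTreg replicate 2 and 5 without cKO aTreg replicate 2.

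Some inhibitors of cyclin-dependent kinases were higher in the same aTreg libraries. Of 19 cell cycle inhibitors and G1 cyclins tested 4 were higher and 0 lower (all genes: 11.3% and 4.39%). Their median log2 fold change was 0.02, and neither count is read as a result about the list. Cdkn2c, which encodes p18, had 3.02 and 7.21 CPM in rTreg and 23.4 and 30.7 CPM in aTreg cells (2.37, standard error 0.229, adjusted p = 0.00016). Cdkn1a, which encodes p21, had 1.27 and 1.37 CPM against 9.88 and 7.39 CPM, and Cdkn2a was at least 7.62-fold higher. Rbl2, a relative of the retinoblastoma protein, rose by 1.45 on the log2 scale. The cyclins Ccnd2 (-0.54) and Ccnd3 (-0.56) passed the adjusted p with decreases under 2-fold.

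In the metabolic lists most members were not called, where 11.3% of all genes tested were higher and 4.39% lower. In glycolysis 5 of 25 genes were higher and 2 lower (median log2 fold change 0.23), and 6 did not pass the adjusted p. The triosephosphate isomerase Tpi1 had 36.4 and 34.9 CPM in rTreg and 86 and 84 CPM in aTreg cells (1.25, standard error 0.0747, adjusted p = 1.78e-05), and Eno2 (2.26), Aldoc (1.65), Slc16a3 (1.47) and Hk2 (1.10) were also higher. The number higher was 2 without cKO rTreg replicate 2, where Eno2 (adjusted p = 0.0739), Aldoc (0.117) and Hk2 (under 2-fold) were lost, Aldoc was also lost without cKO aTreg replicate 2 (0.0837) and Eno2 without the block (0.0712). Pdk1, a pyruvate dehydrogenase kinase, had 321 and 369 CPM in rTreg and 119 and 115 CPM in aTreg cells (-1.56, standard error 0.109, adjusted p = 3.55e-05). Eno3 was also lower (-1.13, and -0.90 without cKO aTreg replicate 1). In cholesterol synthesis and uptake 1 of 25 genes was higher, Hsd17b7 (1.17, and 0.81 without cKO aTreg replicate 2), and 1 lower, and 15 did not pass the adjusted p.

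Integrins changed subunit by subunit, with 7 of 15 tested higher and 2 lower (all genes: 11.3% and 4.39%). Their median log2 fold change was 0.04. Itgb1, the common β1 chain, had 75.7 and 92.8 CPM in rTreg and 881 and 1188 CPM in aTreg cells (3.61, standard error 0.157, adjusted p = 4.68e-06). Itga2 (4.29), Itgad (3.72), Itga3 (1.85) and Itgav (1.29) rose, Itgb5 and Itga1 were at least 40.2-fold and 7.69-fold higher against the floor, and Itga9 (-2.52) and Itga5 (-1.65) fell. Among TGF-β and BMP receptors and SMAD genes 4 of 21 tested were higher and 2 lower (all genes: 11.3% and 4.39%). Their median was -0.15, and neither count is read as a result about the list. Bmpr2, the type II BMP receptor, had 11.3 and 14.9 CPM in rTreg and 44.9 and 71.2 CPM in aTreg cells (2.13, standard error 0.13, adjusted p = 1.93e-05), and Acvr1 (3.17), Bmpr1a (2.63) and Acvr2a (1.18, a call lost without either cKO replicate 2 library) were higher as well. The activin receptors Acvr1b (-1.59) and Acvr1c (-3.63) were lower. Tgfbr1 had a log2 fold change of 0.76 and Smad3 one of 0.58, both under 2-fold, and Tgfbr2 did not pass the adjusted p (-0.15, adjusted p = 0.0742).

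Of 20 Krüppel-like factors and brakes on PI3K signaling 5 were higher and 2 lower (all genes: 11.3% and 4.39%). Their median log2 fold change was 0.07, and neither count is read as a result about the list. Klf7 (49.8 and 42.3 CPM against 15.7 and 8.61 CPM) and Pik3ip1 (124 and 162 CPM against 56.2 and 72.3 CPM), an inhibitor of PI3K, were lower, and both aTreg values lay under both rTreg values. Pik3ip1 lost its call without the block (adjusted p = 0.0599) and was under 2-fold without cKO rTreg replicate 1 (-0.98) or cKO aTreg replicate 2 (-0.98). Phlpp2 (1.39), Klf10 (1.21), Klf9 (1.17) and Klf4 (1.02), whose aTreg values of 62.4 and 11.2 CPM overlapped the rTreg values of 22.1 and 8.58 CPM, were higher, of which Klf4 was lost without either cKO replicate 1 library, Klf9 without cKO rTreg replicate 2 and Klf10 without cKO aTreg replicate 2, and Klf12 was at least 7.91-fold higher, a call lost in 7 alternatives, among them leaving out either cKO rTreg library or cKO aTreg replicate 2 (adjusted p = 0.103 with limma-voom). Tsc1 (0.04, adjusted p = 0.663) did not pass the test. None of the 8 GIMAP GTPases, small GTPases that sustain resting lymphocytes, reached 2-fold, with log2 fold changes between -0.39 and 0.42.

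Markers of other cells that the sort could hold were followed in the same libraries. The 13 B cell markers had a summed level of 260 and 267 CPM in rTreg and 758 and 845 CPM in aTreg cells, and 6 of 8 tested were higher. Most of this sum was Ighm, with 224 and 239 CPM in rTreg and 670 and 771 CPM in aTreg cells. Pax5 (0 and 0.144 CPM against 0.67 and 1.08 CPM) and Blk (0 and 0.0721 CPM against 0.921 and 1.08 CPM) were also called higher. Each of these 2 calls was lost in 4 alternatives. Ms4a1 (at most 0.0837 CPM) was at or near 0 in all 4 libraries. Plasma cell markers summed to 54.9 and 35.0 CPM in rTreg and 50.4 and 33.1 CPM in aTreg cells, with 1 of 5 tested higher, Sdc1, a call lost in 8 alternatives, among them leaving out any of the 4 Foxp1-deficient or either WT rTreg library (adjusted p between 0.0524 and 0.224). Granulocyte markers summed to 20.8 and 9.31 CPM against 35.0 and 4.45 CPM, and macrophage markers to 11.3 and 9.09 CPM against 12.9 and 6.96 CPM, with 0 of 7 and 0 of 3 tested called, and Csf1r and Adgre1 of macrophages were at 0.636 CPM or less. Dendritic cell markers, which include the chemokine receptors Xcr1 and Ccr9, summed to 15.9 and 16.9 CPM against 22.3 and 36.0 CPM with 2 of 3 tested higher, Xcr1 and Zbtb46, while Flt3, Siglech and Cd209a were at 0.318 CPM or less. Markers of CD8 T and NK cells summed to 18.1 and 17.9 CPM against 14.6 and 13.5 CPM with 1 of 4 tested higher, Klrb1c, a call lost without cKO rTreg replicate 2, and Cd8a at 0.721 CPM or less, and those of erythroid cells and platelets to 14.6 and 5.34 CPM against 6.03 and 5.74 CPM with 0 of 2 called. The part of such cells in the results was not tested.

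The same contrast in WT cells, from 4 other libraries in the same fit, called 1382 genes higher (9.5%) and 411 lower (2.83%). Of the genes higher without Foxp1, 1186 were also higher in WT, 72.2% of the Foxp1-deficient list and 85.8% of the WT list. Of those lower, 293 were lower in both, 45.9% of the Foxp1-deficient and 71.3% of the WT list. The median absolute log2 fold change over all genes tested was 0.33 in Foxp1-deficient and 0.28 in WT cells. No gene was higher in Foxp1-deficient and lower in WT aTreg cells, and 4 were lower in Foxp1-deficient and higher in WT aTreg cells, which were Qpct, Lrp4, Plac8 and Cyp2s1. Effector transcription factors were higher for 19 members without Foxp1 and 18 in WT, suppressive molecules for 18 and 18, chemokine receptors for 11 and 11, and mitosis genes for 33 and 38.

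A gene called in only 1 genotype is not shown to differ, so the difference of the subset differences was tested as an interaction. At an adjusted p under 0.05, 48 genes (0.33% of those tested) differed, 27 with a larger log2 difference in Foxp1-deficient cells (0.186%) and 21 with a smaller one (0.144%). Larger and smaller refer to the signed log2 fold change of aTreg over rTreg, not to its size. Among genes with the same sign in both genotypes, the change was of larger size without Foxp1 in 26 and of smaller size in 7. Of 457 genes called higher only without Foxp1, 8 were among them, and of 346 called lower only without Foxp1, 10 were. These counts depended on the replicate pairing and on single libraries. Without the replicate block edgeR called 0, with 487 and 397 genes at an unadjusted p under 0.05, while with the block limma-voom called 21 and 22 and DESeq2 167 and 112. Without cKO rTreg replicate 1, cKO rTreg replicate 2 or cKO aTreg replicate 2 in turn, 1 gene, Ahnak, was left, and without WT rTreg replicate 2 there were 2. Without cKO aTreg replicate 1 the counts were 18 and 10, without WT rTreg replicate 1 they were 9 and 10, without WT aTreg replicate 2 they were 11 and 15, and without WT aTreg replicate 1 they were 80 and 87.

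Ahnak, which encodes a giant scaffold protein of calcium signaling (chromosome 19, 8989284 to 9076914), had 67.9 and 80.5 CPM in Foxp1-deficient rTreg and 1316 and 1798 CPM in Foxp1-deficient aTreg cells, and 319 and 399 CPM in WT rTreg and 1354 and 1760.0 CPM in WT aTreg cells. The aTreg levels of the genotypes overlapped, and the rTreg level was lower without Foxp1. The log2 difference between subsets was 4.38 in Foxp1-deficient and 2.11 in WT cells, an interaction of 2.27 (standard error 0.082, adjusted p = 7.8e-05, adjusted p = 0.181 without the block). Il1rl1 had 4.69 and 5.81 CPM in WT rTreg and 45.8 and 86.2 CPM in WT aTreg cells, while the Foxp1-deficient values given above were lower in rTreg and, by little for the nearest pair of libraries, higher in aTreg cells. The interaction of Il1rl1 was 2.84 (standard error 0.285, adjusted p = 0.0203).

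In other genes the genotypes were apart mainly in resting cells. Src, a tyrosine kinase, had 1.75 and 1.08 CPM in Foxp1-deficient rTreg and 7.91 and 9.42 CPM in WT rTreg cells, and B4galnt4, a glycosyltransferase, 7.8 and 4.98 CPM against 35.6 and 24.5 CPM, with interactions of 2.19 and 2.17. Sh3bgrl2 rose from 3.82 and 3.32 CPM to 20.9 and 14.6 CPM without Foxp1 and did not pass the adjusted p between the WT subsets (29.6 and 19.8 CPM against 27.9 and 19 CPM), an interaction of 2.33. Cd55, which blocks complement on cell surfaces, was lower in aTreg than in rTreg cells of WT mice (44.7 and 68.9 CPM against 14.6 and 31.6 CPM) and higher in those of Foxp1-deficient mice (8.91 and 15 CPM against 19.3 and 24.8 CPM), an interaction of 2.22.

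Among the genes with a smaller signed difference, 5 named genes were higher in both Foxp1-deficient rTreg libraries than in all others. Qpct, which cyclizes N-terminal glutamine, had 41.5 and 43.5 CPM in rTreg and 9.54 and 11.9 CPM in aTreg cells without Foxp1, and 0.46 and 0.549 CPM in rTreg and 0.767 and 1.79 CPM in aTreg cells of WT. Every Foxp1-deficient value was above every WT value, and the interaction was -3.40 (standard error 0.438, adjusted p = 0.0313). Lrp4 (6.84 and 6.35 CPM against 1.42 and 1.58 CPM) and the cytochrome Cyp2s1 (33.3 and 47.5 CPM against 16.4 and 22.3 CPM) also fell without Foxp1 and rose in WT, with interactions of -3.77 and -2.82. Hectd2, a ubiquitin ligase, went from 36.1 and 40.9 CPM to 20 and 23.3 CPM without Foxp1 and from 5.52 and 5.34 CPM to 8.98 and 11.7 CPM in WT cells (-1.77). Spsb1 fell from 49.6 and 50.3 CPM to 17.2 and 17.9 CPM without Foxp1, with a WT log2 fold change of -0.01 (interaction -1.50).

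The proliferation genes Top2a, a topoisomerase, and Mki67 also had smaller differences without Foxp1. Top2a had 53.1 and 68.5 CPM in rTreg and 92 and 128 CPM in aTreg cells without Foxp1, against 6.62 and 9.34 CPM and 31.2 and 58 CPM in WT, so that Foxp1-deficient rTreg cells overlapped WT aTreg cells. The interactions were -1.61 for Top2a (adjusted p = 0.0271) and -1.22 for Mki67 (adjusted p = 0.0271), and the medians of the 60 mitosis genes were 1.06 without Foxp1 and 1.82 in WT, a difference that was not tested as a list. Ccr7 had an interaction of -1.08 and Foxp1 itself one of -0.92 (adjusted p = 0.0477, and 0.0519 with RLE size factors in place of TMM). Both genes fell by more in aTreg cells without Foxp1 than in WT. Over all 48 genes, the genotypes were farther apart in rTreg than in aTreg cells for 22 of the 27 with a larger and 15 of the 21 with a smaller difference, as a description of their mean levels on the log2(CPM + 0.5) scale. In 15 of the 48 the fitted changes had opposite signs.

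**Figure D4:**
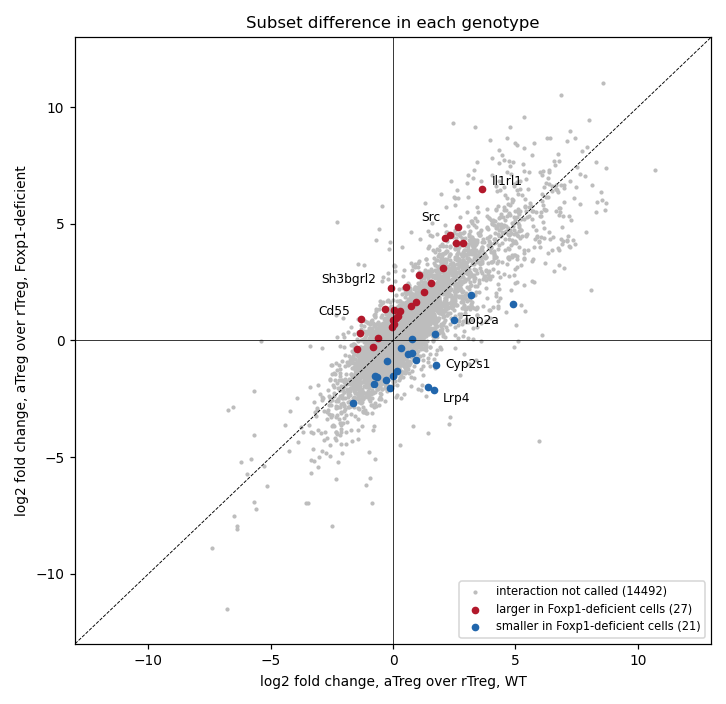
Each point is a gene tested, with its log2 fold change of aTreg over rTreg in WT cells on the x axis and in Foxp1-deficient cells on the y axis, and a dashed line where both are equal. Most genes lie near the line. The 27 genes with a larger signed difference in Foxp1-deficient cells (red) lie above it and the 21 with a smaller one (blue) below. Lrp4 and Cyp2s1 lie in the quadrant of opposite signs.

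**Figure D5:**
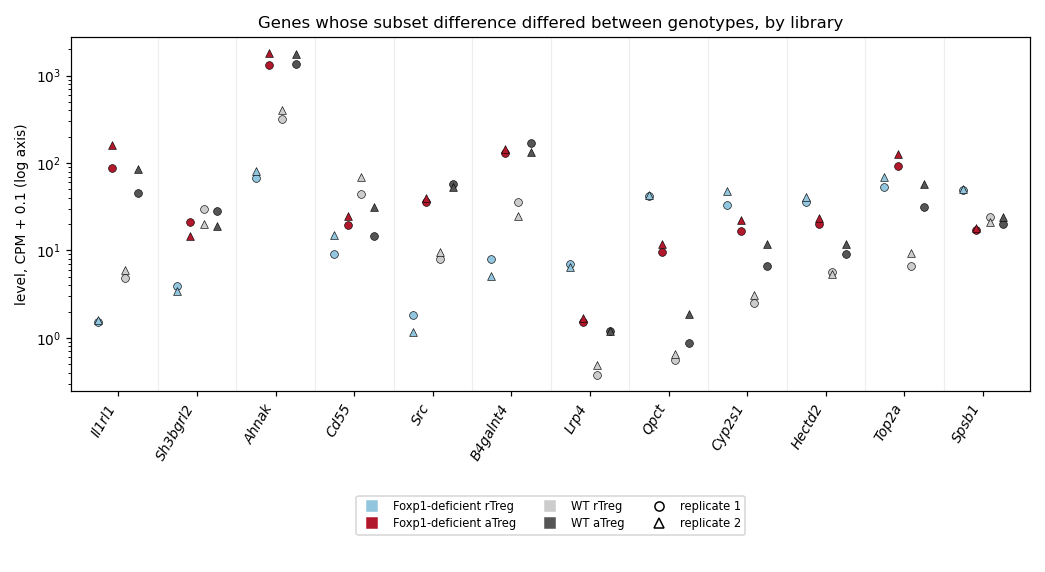
Levels of the 12 named genes whose subset difference differed between genotypes, 6 in each direction, in all 8 libraries, as CPM + 0.1 on a log axis, with circles for replicate 1 and triangles for replicate 2. For Ahnak, Src and B4galnt4 the Foxp1-deficient rTreg libraries (light blue) stand below all others, and for Lrp4, Qpct, Cyp2s1, Hectd2 and Spsb1 they stand above all others.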

How the data were processed

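RNA-seq was made of 8 libraries of sorted Treg cells, 2 in each of 4 groups. Per the study's methods, reads were cleaned with trim_galore, aligned with HISAT2 2.0.5 to mm10 (version and build from the submitters' processing notes) and counted per gene with HTSeq after removal of duplicates. The authors deposited raw counts per gene and FPKM of the same libraries, and the library kit does not mark strand. No column was left unmapped (0). Counts were tested with edgeR 4.0.16 (quasi-likelihood, TMM, filterByExpr at a minimum count of 10) in 1 fit of all 8 libraries with group means and the replicate number as a block, with 3 residual degrees of freedom. The pairing follows the study's paired analysis, and deviations of same-numbered libraries correlated across genes in all 6 pairs of groups (r of 0.389 to 0.632). A gene was called at a Benjamini-Hochberg adjusted p under 0.05 and a 2-fold change, and the interaction at the adjusted p alone. FPKM served only to compare levels between genes. Named were the 10 largest called changes per direction, the 6 largest interactions per direction and list members, all above a minimum level, with the 5 highest bounds for genes at the floor. The members and lists were chosen with earlier results of these data known. The fit was tested on simulated data. The 12 other settings tried included limma 3.58.1, DESeq2 1.42.0, other scalings and filters, no block and leaving out libraries, and leaving out WT libraries was added after seeing the data. Overlapping genes and near-identical copies can share reads. With 6373170 to 15268623 counts per library, genes under a few counts were not resolved. Some genes are not reported here.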

Additional observations from a re-analysis of the deposited data

Results flagged for a closer look

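The subset difference of 18 named or listed genes differed between Foxp1-deficient and WT cells by the interaction test (adjusted p under 0.05, edgeR, Benjamini-Hochberg adjusted). The signed log2 fold change of aTreg over rTreg was larger in Foxp1-deficient cells for Il1rl1 (2.84), Sh3bgrl2 (2.33), Ahnak (2.27), Cd55 (2.22), Src (2.19) and B4galnt4 (2.17). It was smaller for Itga4 (-0.63), Foxp1 (-0.92), Ccr7 (-1.08), Phlpp1 (-1.22), Mki67 (-1.22), Dusp6 (-1.28), Spsb1 (-1.50), Top2a (-1.61), Hectd2 (-1.77), Cyp2s1 (-2.82), Qpct (-3.40) and Lrp4 (-3.77). A smaller signed value could be a larger decrease, as for Ccr7 (-1.87 in Foxp1-deficient and -0.79 in WT cells). Among the 12 named genes and these list members, Ahnak kept its call in every alternative other than the fit without the replicate block. Groups of 2 libraries are too small to test for a library that stands apart.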

How the results depend on the processing

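The counts of genes higher and lower in Foxp1-deficient aTreg cells stayed within 1.5 times of the reported counts in each alternative with a test. With all libraries they lay between 1394 and 1865 for higher genes and between 427 and 677 for lower genes, and the 4 Foxp1-deficient libraries alone gave 1690 and 697. Leaving out each library in turn gave 1264 to 1717 higher and 428 to 676 lower genes, 1 to 80 genes with a larger and 0 to 87 with a smaller interaction, and 150 to 180 called list members. The interaction counts, 27 larger and 21 smaller, were 0 and 0 without the replicate block, 167 and 112 with DESeq2, 60 and 44 with library totals in place of TMM, 359 and 214 without a filter on low counts, and 109 and 77 with robust dispersion. The cause was not tested. Without the replicate block, 1394 genes were higher and 427 lower, and 147 list members were called.
Of 4261 values of single genes under an alternative, 3991 kept direction and call, 269 kept direction without the call, 1 gained the call and 0 reversed. The higher share of all calls was 72.0% and lay between 70.8% and 77.2%. With 2 libraries a group, genes near the floor of 3 counts have folds given only as bounds.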
